A study of Homo sapiens with 15 samples.

Results

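The 9 genes described here are keratins chosen by symbol: KRT7, KRT8, KRT80 and KRT81 of type II, and KRT18, KRT19, KRT10, KRT15 and KRT17 of type I. They are 9 of the 43388 genes in the deposited count tables. The list was made with earlier results of these data known. Shares and medians of the keratins set beside all genes are therefore descriptions and do not test the family. RNA was sequenced from A549 cells, a human lung epithelial line derived from an adenocarcinoma, after 72 h in 95% oxygen (hyperoxia) or 21% oxygen (normoxia). Cells in 10 libraries had first received all-trans retinoic acid (ATRA, an active form of vitamin A) or its ethanol vehicle for 24 h. This was before the exposure, and ATRA was at 1e-05 mM. The treatment labels of 4 further libraries name the oxygen exposure and neither ATRA nor vehicle, and these are called without vehicle here. The groups were normoxia without vehicle (n = 2), normoxia with vehicle (n = 2), normoxia with ATRA (n = 3), hyperoxia without vehicle (n = 2), hyperoxia with vehicle (n = 2) and hyperoxia with ATRA (n = 3). Another library, whose title and treatment label name different treatments, entered no group. The labels do not say that the libraries came from separate cultures, so each p-value measures the spread between these samples.

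Keratins are the intermediate filament proteins of epithelial cells, and each filament is built from pairs of a type I and a type II chain. Simple epithelia such as those lining the lung mostly use the KRT8 and KRT18 pair, with KRT7 and KRT19 beside it, while stratified epithelia and hair use other pairs. The filaments attach to desmosomes and hemidesmosomes and give epithelial sheets mechanical strength, and many keratin genes are known to respond to retinoids.

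The libraries held from 2642377 to 5605072 gene counts. Levels are given as CPM, the usual counts relative to all gene counts of a library, after scaling by the TMM factors of edgeR, and 3 counts, the floor used here, corresponded to between 0.530 and 1.13 CPM. Such floors cover counting error only. All 9 keratins had a row in the tables, and 8 of them passed the filter on low counts in the fits of 10 and of 14 libraries. KRT17, known from injured and activated keratinocytes, had too few counts for any test: 3 counts in normoxia with ATRA replicate 1, 1 count in replicate 3 of that group, and 0 in the other 12 libraries. KRT15 passed the filter with 0 to 72 counts per library, 2 libraries being at 0. KRT10 held 87 to 283 counts, KRT19 77 to 539, KRT80 300 to 1017, and KRT7, KRT8, KRT18 and KRT81 each held at least 1890.

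Among the libraries, hyperoxia without vehicle replicate 1 stood apart. In a principal component analysis of the 500 most variable genes in 14 libraries, it lay at 61.1 on the first component, against 11.3 to 14.8 for the other hyperoxia libraries. The second component placed it at 35.0 and the other hyperoxia libraries at -14.8 to -13.1. It had counts on 12657 genes, the fewest of all libraries. Hyperoxia with ATRA replicate 1 lay at 19.2 on the second component of the 10 vehicle and ATRA libraries, where the other 9 lay between -10.6 and 5.72. For those of the 9 keratins called in a comparison that uses these libraries, the values are given with and without them, and so is each r for the first of them. Fits of all 14 libraries include both.

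The epithelial label was checked against marker lists. CDH1, the E-cadherin of epithelial junctions, was the most abundant of 4 epithelial markers at 9.21 to 80.7 CPM. CLDN4 did not exceed 6.91 CPM, EPCAM did not exceed 4.86 CPM and ESRP1 did not exceed 3 counts. Of 3 tested, 1 was called lower in hyperoxia with vehicle and 0 without vehicle, against 17.5% and 15.2% of all genes called. With ATRA 2 were called lower, against 22.7% of all genes. The EPCAM call among these (edgeR adjusted p = 0.0452) was lost with all 14 libraries (0.0943). With 1 library left out, the EPCAM call was kept in 2 of 10 fits. It was lost, for example, without normoxia ATRA replicate 1 (edgeR adjusted p = 0.102) or 3 (0.106). The summed level of the 4 epithelial markers was 45.9 to 90.2 CPM in the 7 normoxia libraries and 13.7 to 45.2 CPM in the 7 hyperoxia libraries. Of 8 alveolar type II markers, ABCA3 was abundant at 50.7 to 152 CPM, SFTPA1 was at 0 in 14 libraries, and SFTPB, SFTPC and SFTPD did not exceed 5 counts. Markers of other cell types were low but not absent, and the most abundant of them exceeded EPCAM at their highest. Their summed levels reached at most 8.46 CPM for 4 airway basal genes (most abundant TP63, KRT5 at 0), 13.3 CPM for 6 fibroblast genes (COL1A1, DCN at 0), 6.34 CPM for 5 endothelial genes (CDH5, VWF at 0) and 15.3 CPM for 5 leukocyte genes (CD14, CD3E and MS4A1 at 0). Several moved with oxygen: COL1A1 had 35 and 35 counts in normoxia with vehicle and 1 and 8 in hyperoxia with vehicle (log2 fold change -3.30, edgeR adjusted p = 0.0202), a call lost without hyperoxia vehicle replicate 1 (0.212), without normoxia vehicle replicate 1 (0.216) or 2 (0.0513), and with all 14 libraries (0.0682). Without vehicle COL1A1 had 38 and 22 counts in normoxia and 0 in both hyperoxia libraries (edgeR adjusted p = 0.00569), called in 14 of 14 fits with 1 library left out and not with only the groups compared (0.252). CD14 had 10 and 23 counts in normoxia without vehicle and 0 in both hyperoxia libraries (edgeR adjusted p = 0.0140), a call lost without hyperoxia no-vehicle replicate 1 (0.0552) or normoxia no-vehicle replicate 2 (0.0665). CDH5 had 20, 6 and 10 counts in normoxia with ATRA and 0 in hyperoxia with ATRA (edgeR adjusted p = 0.0148; DESeq2 0.295). With ATRA in normoxia CD14 had 40, 49 and 52 counts, against 4 and 17 with vehicle. Its log2 fold change of 2.49 was not called (edgeR adjusted p = 0.132). It was called with only the groups compared (0.0106) and with no filter on low counts (0.0253). In hyperoxia the CD14 value with ATRA was 2.22 (edgeR adjusted p = 0.193). CDH5 was at 0 in normoxia with vehicle. The summed level of the 9 keratins was 4897 to 13766 CPM.

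Per kilobase of the canonical transcript, the mean level over 14 libraries was 1727 CPM per kb for KRT8, 1235 for KRT7, 1202 for KRT18 and 925 for KRT81. A step below came KRT19 at 46.1, KRT80 at 35.7 and KRT10 at 19.02 CPM per kb, then KRT15 at 1.56 and KRT17 at 0.0498. The order of the upper 4 genes depended on the length used. Per kilobase of all annotated exons, KRT81 came first at 925 CPM per kb, followed by KRT18 at 554, KRT7 at 502 and KRT8 at 448. The summed keratin level was 10077 ± 1332 CPM (SD, n = 2) in normoxia without vehicle, 10685 ± 718 (n = 2) with vehicle and 12259 ± 1944 (n = 3) with ATRA. In hyperoxia the sum was 5550.2 ± 119 CPM without vehicle (n = 2), 5025 ± 180.3 with vehicle (n = 2) and 7990.4 ± 591 with ATRA (n = 3). Every hyperoxia library lay below every normoxia library in this sum, the highest in hyperoxia being 8637 CPM and the lowest in normoxia 9136 CPM. On raw library totals the exposures overlapped. Hyperoxia with ATRA replicate 1, at 8701 CPM, then lay above normoxia without vehicle replicate 1, at 8681 CPM.

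**Figure D1:**
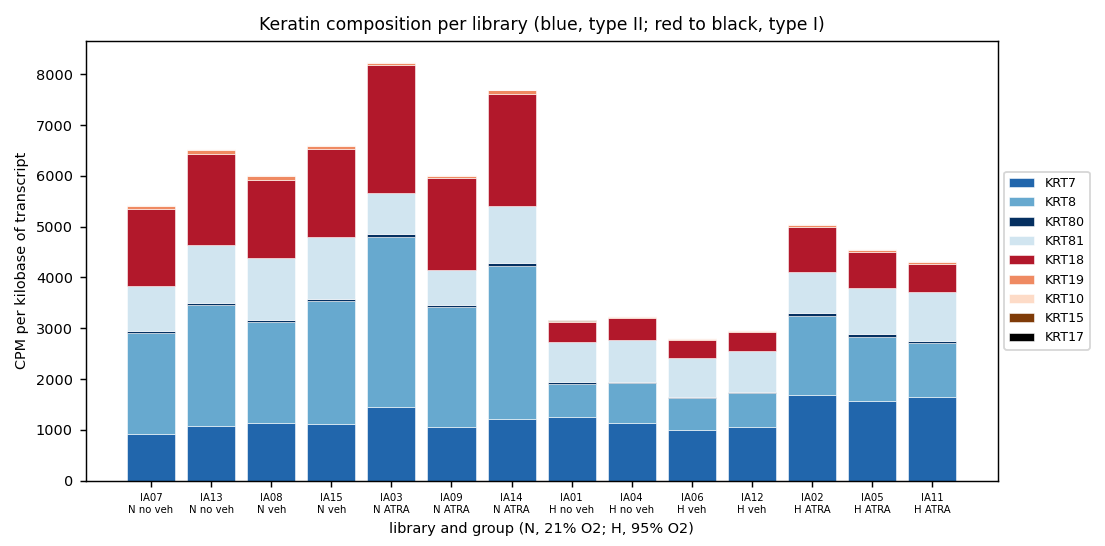
Stacked keratin levels in CPM per kilobase of canonical transcript (vertical axis) in each of 14 libraries, grouped by oxygen (N, 21%; H, 95%) and pre-treatment (veh, vehicle), with type II keratins in blue and type I from red to black. KRT8 and KRT18 make up less of each hyperoxia bar than of each normoxia bar.

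KRT8 is the type II partner of KRT18 and the first keratin made in simple epithelia. Its level was 3541 and 4242 CPM in normoxia without vehicle, 3564 and 4344 CPM with vehicle, and 5991, 4189 and 5380.5 CPM with ATRA. In hyperoxia it was 1176 and 1414.5 CPM without vehicle, 1125 and 1208 CPM with vehicle, and 2781, 2267.5 and 1901 CPM with ATRA. All 7 hyperoxia libraries were below all 7 normoxia libraries, and the 3 hyperoxia libraries with ATRA lay above the 4 without it. With vehicle, KRT8 fell 3.33-fold in hyperoxia, a log2 fold change of -1.73 (SE 0.17, edgeR adjusted p = 2.73e-07). With ATRA in both arms the log2 fold change between the oxygen exposures was -1.13 (SE 0.14, edgeR adjusted p = 3.66e-06). In bulk RNA, fewer cells making a transcript and less of it per cell cannot be told apart.

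KRT18 is the type I chain that pairs with KRT8. Its level in normoxia was 2145 and 2519 CPM without vehicle, 2192 and 2446 CPM with vehicle, and 3541, 2568 and 3137 CPM with ATRA. The hyperoxia libraries held 565 and 611 CPM without vehicle, 504 and 534 CPM with vehicle, and 1234, 986 and 802 CPM with ATRA. As for KRT8, no hyperoxia library reached a normoxia library, and hyperoxia with ATRA stood above the other hyperoxia groups. KRT18 fell 4.39-fold in hyperoxia with vehicle, a log2 fold change of -2.13 (SE 0.17, edgeR adjusted p = 2.17e-08). With ATRA the log2 fold change between the oxygen exposures was -1.58 (SE 0.14, edgeR adjusted p = 3.82e-08).

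The balance of the pair also differed between the oxygen exposures. KRT8 counts per KRT18 count were 1.63 to 1.78 in the 7 normoxia libraries and 2.08 to 2.37 in the 7 hyperoxia libraries, with no overlap. Together KRT8 and KRT18 made up 56.6% to 69.2% of the summed keratin CPM in normoxia and 31.8% to 46.5% in hyperoxia. KRT7 made up 15.3% to 18.02% of the sum in normoxia and 31.8% to 37.1% in hyperoxia. Summed per kilobase of canonical transcript, type II over type I keratins gave 2.20 to 2.68 in normoxia libraries and 4.32 to 6.30 in hyperoxia libraries. These ratios are descriptions, and no test was run on them. Over 14 libraries, the Pearson r of log2(CPM + 1) was 0.992 between KRT8 and KRT18, 0.868 between KRT8 and KRT19, 0.807 between KRT7 and KRT80, and -0.06 between KRT7 and KRT18. Without hyperoxia no-vehicle replicate 1 these were 0.992, 0.874, 0.810 and -0.05 (n = 13). The oxygen difference that these libraries share enters each r.

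**Figure D2:**
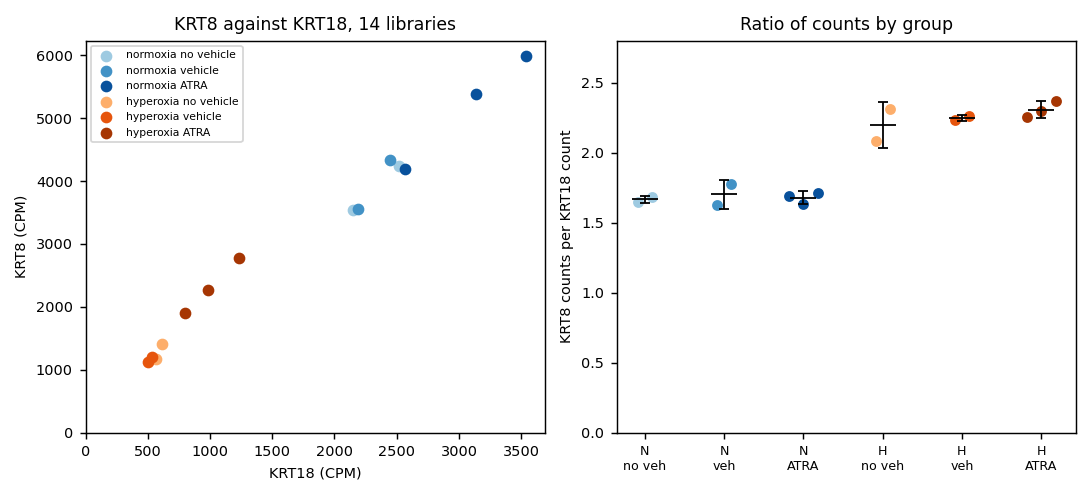
KRT8 against KRT18 in CPM for 14 libraries (left), and KRT8 counts per KRT18 count by group (right; points, libraries; bars, mean and SD; N, 21% oxygen; H, 95%; veh, vehicle). The ratio is 1.63 to 1.78 in normoxia and 2.08 to 2.37 in hyperoxia.

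KRT8 and KRT18 lie next to each other on chromosome 12 of hg38, on opposite strands, and their annotated exons share 525 bases. The libraries were made with a directional kit, but the strand setting of the read counting is not stated, so the split of reads in such overlaps is uncertain. Reads from near-identical pseudogene copies are uncertain in the same way, and KRT8P41, a KRT8 pseudogene, held 0 to 72 counts. KRT8P41 was lower in hyperoxia with vehicle (log2 fold change -2.53, edgeR adjusted p = 0.00726) and with ATRA (-2.13, adjusted p = 0.00414). Both calls were lost with all 14 libraries in the fit (edgeR adjusted p = 0.158 and 0.109). The call with vehicle was also lost without hyperoxia vehicle replicate 1 (log2 fold change -2.47) or 2 (-2.66) or normoxia vehicle replicate 2 (-2.39). The RefSeq promoter table (GRCh38.p14) matched 2 of the 9 keratins, KRT8 and KRT10, and had none for KRT7, KRT15, KRT17, KRT18, KRT19, KRT80 and KRT81. Both windows are shown because no other keratin of the 9 had one. Each holds the 250 bases before the annotated start, on the minus strand, from chr12:52926470-52926719 for KRT8 and chr17:40822615-40822864 for KRT10, written 5′ to 3′ with motif matches in capitals. The KRT8 window belongs to 1 annotated start, and most annotated KRT8 transcripts start elsewhere.
KRT8: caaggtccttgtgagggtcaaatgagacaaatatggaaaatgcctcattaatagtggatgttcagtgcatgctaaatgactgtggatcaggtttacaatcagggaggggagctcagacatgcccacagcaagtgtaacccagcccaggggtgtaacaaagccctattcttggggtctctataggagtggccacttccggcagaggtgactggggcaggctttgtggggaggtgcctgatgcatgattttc
KRT10: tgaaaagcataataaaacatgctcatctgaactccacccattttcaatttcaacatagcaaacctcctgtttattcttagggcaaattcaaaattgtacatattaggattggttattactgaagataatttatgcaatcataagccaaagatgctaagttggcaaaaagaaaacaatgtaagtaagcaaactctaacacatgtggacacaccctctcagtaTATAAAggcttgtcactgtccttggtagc
The motifs searched on both strands, from 250 bases before to 50 after the start, were the AP-1 motif TGANTCA, which 7.71% of 35116 promoters of the same length hold, and the core retinoid receptor element AGGTCA, which 13.8% hold. The GC box GGGCGG was found in 45% of them and the TATA box TATAAA in 11.5%. The KRT10 window held TATAAA at position -29 from the start, on the strand of the gene, and the KRT8 window held no match to these letters.

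KRT19, the smallest keratin and a chain of simple and ductal epithelia, was at 91.8 and 96.3 CPM in normoxia without vehicle, 96.0 and 97.6 CPM with vehicle, and 73.7, 60.8 and 87.6 CPM with ATRA. In hyperoxia it was at 14.9 and 27.5 CPM without vehicle, 33.9 and 30.02 CPM with vehicle, and 76.5, 61.1 and 49.2 CPM with ATRA. The 4 hyperoxia libraries without ATRA were the lowest of the 14, while the ATRA libraries of the 2 oxygen exposures overlapped. With vehicle, KRT19 fell 2.98-fold in hyperoxia (log2 fold change -1.58, SE 0.22, edgeR adjusted p = 1.84e-05). With ATRA its log2 fold change between oxygen exposures was -0.21 (SE 0.17, edgeR adjusted p = 0.416).

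KRT7, a type II keratin of simple and glandular epithelia, was at 1507 and 1756 CPM in normoxia without vehicle, 1834 and 1799 CPM with vehicle, and 2347, 1724 and 1981 CPM with ATRA. Hyperoxia gave 2027 and 1830.5 CPM without vehicle, 1619.6 and 1711 CPM with vehicle, and 2749, 2532 and 2679 CPM with ATRA. The 3 libraries of hyperoxia with ATRA were above all others, while hyperoxia lay above normoxia without vehicle and below it with vehicle, with no overlap in either pair. KRT7 had a log2 fold change of -0.10 between the oxygen exposures with vehicle (SE 0.13, edgeR adjusted p = 0.688), where KRT8 and KRT18 fell. With ATRA in both arms KRT7 rose 1.35-fold in hyperoxia (log2 fold change 0.43, SE 0.11, edgeR adjusted p = 0.00611). The pseudogene KRT87P, on the opposite strand, overlaps 32 exon bases of KRT7 and held 255 to 909 counts. It was lower in hyperoxia with vehicle (log2 fold change -0.86, edgeR adjusted p = 0.000815) and without vehicle (-0.94, adjusted p = 0.00196). With ATRA KRT87P was not called (-0.14, edgeR adjusted p = 0.513). An antisense gene, KRT7-AS, overlaps 282 exon bases of KRT7 and held 31.6 to 45.5 counts per 100 KRT7 counts. The unstated strand setting applies to both pairs too. KRT7-AS was also higher in hyperoxia with ATRA (log2 fold change 0.42, edgeR adjusted p = 0.0158), a call lost without hyperoxia ATRA replicate 1 (0.0513) or normoxia ATRA replicate 2 (0.0710), with all 14 libraries (0.0518) and with only the groups compared (0.0501). With ATRA against vehicle in hyperoxia KRT7-AS was higher too (0.66, edgeR adjusted p = 0.0111), a call lost without hyperoxia vehicle replicate 1 (0.238) or 2 (0.113) and with all 14 libraries (0.0662).

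KRT81, a type II keratin of the hair cortex, was at 1707 and 2234 CPM in normoxia without vehicle, 2355 and 2345 CPM with vehicle, and 1575, 1331 and 2162 CPM with ATRA. Its hyperoxia levels were 1511 and 1585 CPM without vehicle, 1469 and 1532 CPM with vehicle, and 1568, 1776 and 1829 CPM with ATRA. The vehicle libraries of normoxia were the highest, and the spread within normoxia with ATRA reached over most of the range. KRT81 fell 1.54-fold in hyperoxia with vehicle (log2 fold change -0.62, SE 0.16, edgeR adjusted p = 0.00921). The call was lost without hyperoxia vehicle replicate 1 (log2 fold change -0.62, edgeR adjusted p = 0.0659) and in a fit of 14 libraries with treatment as a covariate (-0.24, adjusted p = 0.142). The KRT86 locus spans KRT81 on the opposite strand without shared exon bases, and the 2 genes are close copies of each other.

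KRT80, a type II keratin found at low levels in many epithelia, was at 97.8 and 123 CPM in normoxia without vehicle, 105 and 119 CPM with vehicle, and 201, 162 and 161 CPM with ATRA. In hyperoxia its level was 129 and 112 CPM without vehicle, 101 and 84.0 CPM with vehicle, and 180.1, 189 and 171 CPM with ATRA. The 6 ATRA libraries lay above the other 8 at both oxygen exposures. Between the oxygen exposures its log2 fold change was -0.26 with vehicle (SE 0.16, edgeR adjusted p = 0.307) and 0.07 with ATRA (SE 0.12, adjusted p = 0.723).

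KRT10, the type I keratin of differentiating epidermal layers, ranged from 29.3 to 49.97 CPM over the 14 libraries. With vehicle it was at 30.5 and 39.5 CPM in normoxia and at 44.5 and 49.97 CPM in hyperoxia, which did not overlap, with a log2 fold change of 0.45 (SE 0.22, edgeR adjusted p = 0.175). Without vehicle KRT10 was at 43.5 and 47.4 CPM in normoxia and at 29.3 and 49.1 CPM in hyperoxia. These groups overlapped, with a log2 fold change of -0.18 (SE 0.25, edgeR adjusted p = 0.667). The antisense gene TMEM99, which overlaps KRT10, was at 4.76 to 11.5 CPM in the 7 normoxia libraries and 29.9 to 51.8 CPM in the 7 hyperoxia libraries. Its part in the KRT10 counts was not tested. KRT15, a type I keratin of basal epithelial cells, was at 0 to 3.44 CPM in 12 libraries, and at 13.97 and 4.85 CPM in hyperoxia without vehicle. In the comparison of the groups without vehicle its log2 fold change was 2.22 (SE 1.38, edgeR adjusted p = 0.295), and 1.24 without replicate 1 of that hyperoxia group (adjusted p = 0.705).

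**Figure D3:**
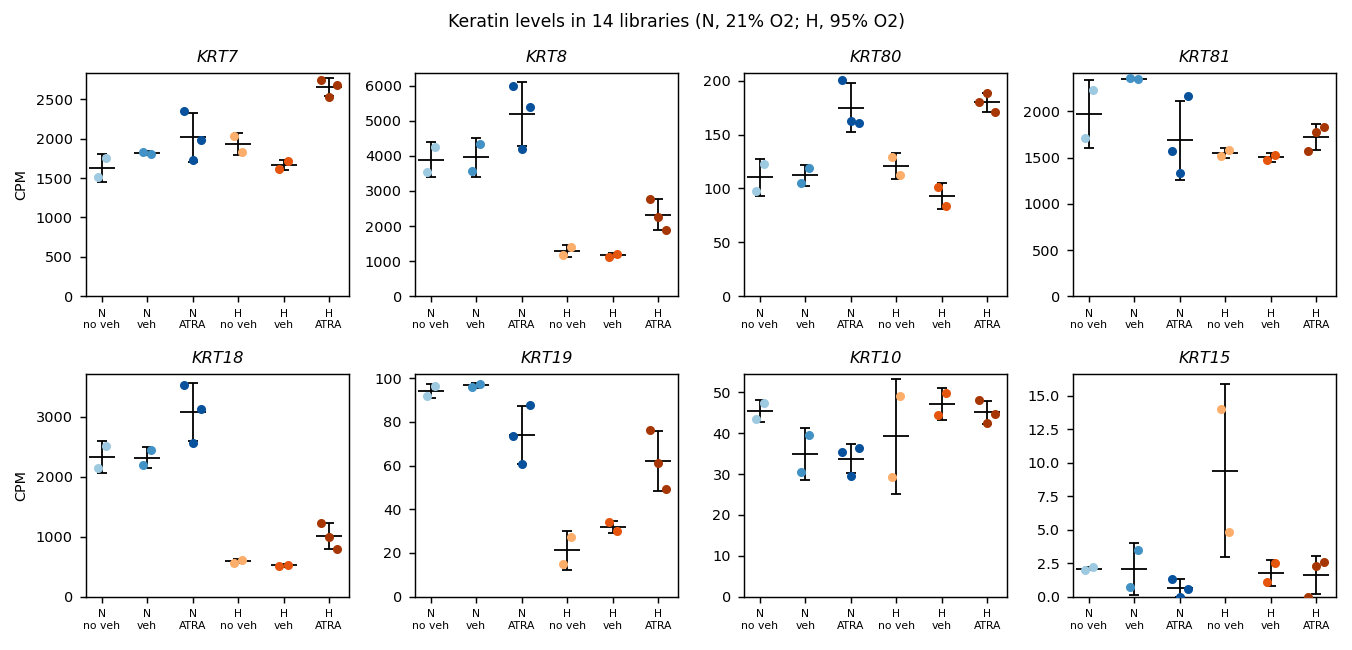
Levels in CPM of the 8 keratins that passed the filter, by group (points, libraries; bars, mean and SD, n = 2 or 3; N, 21% oxygen; H, 95%; veh, vehicle). KRT8 and KRT18 separate by oxygen in every group, and KRT80 separates by ATRA.

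The comparison of hyperoxia with normoxia in vehicle libraries asks what high oxygen does without retinoic acid. KRT18, KRT8, KRT19 and KRT81 fell. The groups did not overlap for 7 of the 8 keratins, 6 lower and KRT10 higher, but with 2 libraries against 2 the same held for 64.3% of all genes tested, 32.9% lower and 31.4% higher. These are 4 of 8 keratins tested, against 17.5% of the 14957 genes tested by edgeR at an adjusted p under 0.05, with 8.81% of genes lower and 8.68% higher. The median log2 fold change was -0.44 over the 8 keratins and 0.01 over all genes. By log2 fold change the simple-epithelial pair fell most with vehicle, followed by KRT19 at -1.58, and this order was not tested. Without vehicle KRT19 fell most, at -2.13. KRT7 and KRT80, at log2 fold changes of -0.10 and -0.26 with vehicle, did not pass the test.

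With ATRA at both oxygen exposures, KRT18 and KRT8 were lower and KRT7 was higher in hyperoxia. With KRT10, which was higher but not called, 4 of 8 keratins had no overlap between the groups, against 35.3% of all genes. This makes 3 of 8 keratins called, 2 lower and 1 higher, against 22.7% of all genes, 11.3% lower and 11.4% higher. The median log2 fold change was 0.07 over the 8 keratins and 0.01 over all genes. Without hyperoxia ATRA replicate 1, which stood apart, the log2 fold changes were -1.75 for KRT18, -1.28 for KRT8 and 0.40 for KRT7 (edgeR adjusted p = 4.63e-09, 7.56e-07 and 0.0218).

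Libraries without vehicle gave a separate view of the oxygen difference, in a fit of 14 libraries. KRT19, KRT18 and KRT8 fell, with log2 fold changes of -2.13 (SE 0.27), -1.94 (SE 0.19) and -1.54 (SE 0.19) and edgeR adjusted p of 8.80e-05, 5.96e-06 and 6.58e-05. No overlap between the groups was seen for 6 of the 8 keratins, 4 lower and 2 higher, and for 53.0% of all 15339 genes, whose median log2 fold change was -0.10. Of 8 keratins 3 were called, all lower, against 15.2% of all genes, 7.58% lower and 7.57% higher, and the median over the keratins was -0.24. Without hyperoxia no-vehicle replicate 1, the library farthest from the rest, KRT19 was at -1.74, KRT18 at -1.90 and KRT8 at -1.43 (edgeR adjusted p = 0.000169, 3.12e-06 and 9.43e-05). In a fit of these 4 libraries alone, KRT8 (-1.54, edgeR adjusted p = 0.0505) and KRT19 (-2.12, adjusted p = 0.0908) were not called. KRT81, at a log2 fold change of -0.30 (edgeR adjusted p = 0.287), was not called without vehicle.

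ATRA was compared with vehicle in normoxia. KRT80 rose 1.56-fold (log2 fold change 0.65, SE 0.14, edgeR adjusted p = 0.0212), and it was higher in 3 of 3 ATRA libraries than in both vehicle libraries. It was the 1 keratin called of 8, against 1.25% of all genes, 0.816% higher and 0.435% lower, with a median of 0.05 over the keratins and 0.00 over all genes. The KRT80 call was lost without normoxia ATRA replicate 1 (log2 fold change 0.54, edgeR adjusted p = 0.135), without normoxia vehicle replicate 1 (0.56, 0.465) or replicate 2 (0.73, 0.165), and with all 14 libraries in the fit (0.65, 0.107). KRT8 and KRT18 had log2 fold changes of 0.40 and 0.42 (SE 0.15 for each, edgeR adjusted p = 0.370 and 0.316). KRT18 was higher in 3 of 3 ATRA libraries, while KRT8 overlapped. The groups did not overlap for 4 of 8 keratins, 2 higher and 2 lower, and for 27.5% of all genes. KRT81 was lower in all 3 ATRA libraries at a log2 fold change of -0.47 (SE 0.15, edgeR adjusted p = 0.167). KRT81 passed the threshold without normoxia ATRA replicate 3 (-0.68, edgeR adjusted p = 0.00231) and with no filter on low counts (-0.48, adjusted p = 0.00763).

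In hyperoxia, ATRA went with higher levels of 5 keratins. KRT8 rose 2.01-fold, KRT19 1.98-fold, KRT80 1.97-fold, KRT18 1.97-fold and KRT7 1.61-fold over vehicle, and each was higher in 3 of 3 ATRA libraries than in both vehicle libraries. With KRT81, 6 of 8 keratins were higher without overlap, against 14.2% of all genes higher and 16.8% lower without overlap. The log2 fold changes were 1.01 for KRT8 (SE 0.16), 0.99 for KRT19 (SE 0.20), 0.98 for KRT80 (SE 0.14), 0.97 for KRT18 (SE 0.16) and 0.69 for KRT7 (SE 0.12). Their edgeR adjusted p-values were 0.000706, 0.00862, 0.000422, 0.000937 and 0.00258 in the same order. These 5 of 8 keratins, all higher, stand against 2.21% of all genes, 1.52% higher and 0.695% lower. This is a description, because the list was made with earlier results of these data known. The median log2 fold change was 0.83 over the 8 keratins and 0.00 over all genes. KRT81 also had no overlap between the groups, at a log2 fold change of 0.22 (SE 0.15, edgeR adjusted p = 0.572).

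Without hyperoxia ATRA replicate 1, the 5 log2 fold changes were 0.85 for KRT8, 0.80 for KRT19, 0.97 for KRT80, 0.80 for KRT18 and 0.66 for KRT7, and each kept an edgeR adjusted p under 0.05, the highest being 0.0420 for KRT19. Leaving out hyperoxia vehicle replicate 1 ended the calls of KRT7 (log2 fold change 0.64, edgeR adjusted p = 0.0978) and KRT19 (1.07, adjusted p = 0.0891). Without hyperoxia vehicle replicate 2 KRT19 was not called (0.89, edgeR adjusted p = 0.214), nor was it with all 14 libraries in the fit (0.98, adjusted p = 0.0923). The hyperoxia vehicle libraries served as controls here and as the hyperoxia arm of the oxygen comparison, so these comparisons share libraries. KRT8, for example, was at 3954 ± 551 CPM in normoxia with vehicle (SD, n = 2), 1166 ± 59.3 CPM in hyperoxia with vehicle (n = 2) and 2316 ± 442 CPM in hyperoxia with ATRA (n = 3). KRT18 stood at 2319 ± 179.6, 519 ± 21.4 and 1008 ± 217 CPM in the same groups.

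**Figure D4:**
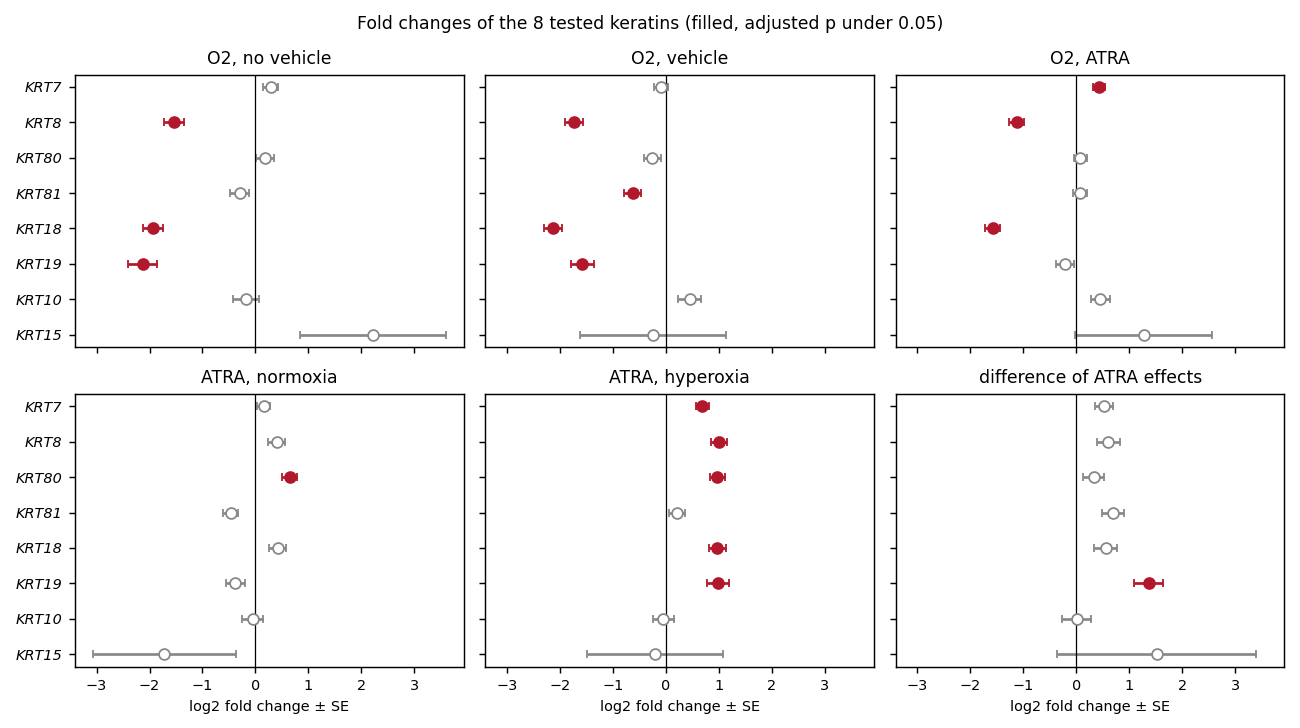
Log2 fold changes with SE of the 8 tested keratins in 6 comparisons, hyperoxia against normoxia (O2) by pre-treatment, ATRA against vehicle by oxygen, and the difference of the ATRA effects; filled points have an edgeR adjusted p under 0.05. KRT8 and KRT18 lie left of 0 in the 3 oxygen comparisons and right of 0 with ATRA in hyperoxia.

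Whether the ATRA effect differed between the oxygen exposures was tested by an interaction term. KRT19 was at -0.38 with ATRA in normoxia and 0.99 in hyperoxia, a difference of 1.37 on the log2 scale (SE 0.28, edgeR adjusted p = 0.0497). It was 1 of 8 keratins called, higher, against 0.14% of all genes, 0.1% higher and 0.0401% lower, and the median difference was 0.58 over the keratins and 0.00 over all genes. The call lay close to the threshold and was lost on leaving out any 1 of 8 of the 10 libraries. The edgeR adjusted p was 0.0706 without hyperoxia ATRA replicate 1 and 0.104 without replicate 2, and 0.133 without normoxia ATRA replicate 1 and 0.120 without replicate 2. Without hyperoxia vehicle replicate 1 it was 0.230, without replicate 2 it was 0.408, and without normoxia vehicle replicate 1 or 2 it was 0.176 or 0.264. The difference itself lay between 1.17 and 1.45 in these 8 fits, and the fit of all 14 libraries gave 1.36 (edgeR adjusted p = 0.517).

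For the other 7 keratins the difference was 1.52 for KRT15 (SE 1.88), at low counts, 0.69 for KRT81, 0.61 for KRT8, 0.56 for KRT18, 0.53 for KRT7, 0.33 for KRT80 and 0.01 for KRT10. Their edgeR adjusted p was 0.927 for KRT15, between 0.348 and 0.801 for the next 5, and 1.00 for KRT10. So the higher KRT8, KRT18 and KRT7 with ATRA in hyperoxia are not shown to differ from the effect in normoxia. KRT7 passed the threshold with DESeq2 (0.53, adjusted p = 0.00837). KRT81 passed it without normoxia ATRA replicate 3 (0.88, edgeR adjusted p = 0.0183) and with no filter on low counts (0.68, adjusted p = 0.0238).

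Beyond these 9 and KRT87P, the tables held 52 other keratin genes and keratin pseudogenes, of which 12 reached 10 counts in a library and 27 were at 0 in all 14. The stratified-epithelium keratins KRT5 and KRT6A were at 0, and KRT14 did not exceed 1 count. None of the 24 other type I keratins passed the filter. Of 22 other type II keratins 4 passed it in the vehicle and ATRA libraries, and 2 of the 4 fell in hyperoxia with vehicle, KRT4 and KRT86. Their median log2 fold change in that comparison was -0.87, and 17.5% of all genes were called.

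KRT4, a keratin of moist stratified linings such as the esophagus, was at 29.4 and 25.3 CPM in normoxia with vehicle and 102, 67.7 and 71.0 CPM with ATRA. In hyperoxia it was at 0.263 and 1.06 CPM with vehicle, from 1 and 6 counts, and at 5.31, 3.39 and 6.06 CPM with ATRA. These vehicle and ATRA groups did not overlap by oxygen or by ATRA. No overlap by oxygen held for 64.3% of all genes with vehicle and 35.3% with ATRA. By ATRA it held for 27.5% in normoxia and 31.0% in hyperoxia. Hyperoxia without vehicle, at 0 and 3.56 CPM, overlapped hyperoxia with ATRA. Without vehicle KRT4 was lower in hyperoxia too (log2 fold change -4.19, edgeR adjusted p = 0.00138). KRT4 fell in hyperoxia with vehicle (log2 fold change -5.14, SE 0.45, edgeR adjusted p = 5.17e-08) and with ATRA (-3.94, SE 0.27, adjusted p = 1.32e-09). With 1 library left out the value with vehicle ran from -6.53 to -4.65. It rose with ATRA in normoxia (1.57, SE 0.26, edgeR adjusted p = 0.00209) and in hyperoxia (2.76, SE 0.51, adjusted p = 0.00311), the latter running from 2.24 to 4.12 with 1 library left out. The call in normoxia was lost without normoxia vehicle replicate 2 (edgeR adjusted p = 0.106) and the call in hyperoxia without hyperoxia vehicle replicate 1 (adjusted p = 0.0906). With all 14 libraries in the fit, the edgeR adjusted p was 0.509 in normoxia and 0.213 in hyperoxia, with pooled controls 0.0982 and 0.0934, and with only the hyperoxia vehicle and ATRA libraries 0.224 in hyperoxia. KRT86, the hair keratin next to KRT81, was at 36.4 and 33.1 CPM in normoxia with vehicle and 18.2 and 15.4 CPM in hyperoxia with vehicle (log2 fold change -1.03, SE 0.28, edgeR adjusted p = 0.0121). Its call was lost without normoxia vehicle replicate 1 (edgeR adjusted p = 0.0835) and without hyperoxia vehicle replicate 2 (adjusted p = 0.141), and with all 14 libraries in the fit (adjusted p = 0.195).

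The lists that follow are set beside the 17.5% of all genes called in hyperoxia with vehicle and the 2.21% called for ATRA in hyperoxia. The junctions that anchor keratin filaments were described from a list of 14 desmosome genes, of which 9 were tested. With vehicle, 3 of the 9 were called in hyperoxia: JUP (plakoglobin) at a log2 fold change of -1.82 and DSP (desmoplakin, which binds keratin filaments) at -0.55 were lower, and the cadherin DSC3 was higher at 1.95. Their SE were 0.18, 0.15 and 0.29, and their edgeR adjusted p 2.88e-07, 0.0139 and 5.15e-05. JUP was at 679 and 814 CPM in normoxia with vehicle and at 202 and 212 CPM in hyperoxia with vehicle. The DSP call was lost without hyperoxia vehicle replicate 2 (edgeR adjusted p = 0.141) and without normoxia vehicle replicate 2 (adjusted p = 0.0990). With ATRA in hyperoxia 1 of the 9 was called, JUP at 0.73 (SE 0.17, edgeR adjusted p = 0.0188). That call was lost without hyperoxia ATRA replicate 1 (adjusted p = 0.0838), hyperoxia vehicle replicate 1 (0.274) or replicate 2 (0.170), with all 14 libraries in the fit (0.113) and with pooled controls (0.194).

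Of 9 hemidesmosome and cytolinker genes, 8 were tested and 4 were called with vehicle, ITGB4 (log2 fold change -1.02) and ITGA6 (-0.69), the integrin chains of hemidesmosomes, being lower and PLEC (0.62) and COL17A1 (3.25) higher in hyperoxia. The edgeR adjusted p was 0.000270, 0.00205, 0.00340 and 0.0446 in this order. With treatment as a covariate in 14 libraries, ITGB4 was not called (-0.33, edgeR adjusted p = 0.245), nor was COL17A1 (1.58, adjusted p = 0.158). The PLEC call was lost without normoxia vehicle replicate 1 (edgeR adjusted p = 0.0773), and the COL17A1 call was lost without normoxia ATRA replicate 1 (0.0625), hyperoxia vehicle replicate 1 (0.170) or replicate 2 (0.243), or normoxia vehicle replicate 1 (0.323), and with all 14 libraries in the fit (0.232). COL17A1 had 0 and 7 counts in normoxia with vehicle, and its log2 fold change ran from 2.48 to 7.83 with 1 library left out. ITGB4 rose with ATRA in hyperoxia (1.20, SE 0.17, edgeR adjusted p = 0.000187; 1.09 without hyperoxia ATRA replicate 1, adjusted p = 0.000538), and its ATRA effects differed by 1.39 between the oxygen exposures (adjusted p = 0.00861). The difference was not called without hyperoxia vehicle replicate 1 (edgeR adjusted p = 0.126) or normoxia vehicle replicate 2 (0.157), nor with all 14 libraries (0.517).

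Among 5 keratin-binding proteins, all tested, SFN was the 1 called with vehicle, higher in hyperoxia at a log2 fold change of 0.82 (edgeR adjusted p = 0.00330), a call lost without normoxia vehicle replicate 2 (0.0751). SFN fell with ATRA in hyperoxia (-0.65, edgeR adjusted p = 0.0411), a call lost without hyperoxia ATRA replicate 1 (0.136), either hyperoxia vehicle library (0.295 and 0.323) or either normoxia vehicle library (0.0561 and 0.0557), with all 14 libraries (0.158), only the groups compared (0.0745) or pooled controls (0.0525). In normoxia SFN fell with ATRA too (-0.72, edgeR adjusted p = 0.0447), a call lost in 8 of 10 fits with 1 library left out, at adjusted p from 0.0522 to 0.497.

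Of 15 other intermediate filament genes 11 were tested and 6 were called with vehicle, 2 higher and 4 lower. NEFL, a neurofilament chain, was higher at 3.27 and the lamins LMNB1 and LMNB2 were lower at -1.44 and -0.86 (edgeR adjusted p = 1.50e-06, 0.000121 and 0.000456). NEFL ran from 2.76 to 4.56 with 1 library left out. VIM, the most abundant of the list, was higher at 0.68 (edgeR adjusted p = 0.00337), a call lost without hyperoxia vehicle replicate 1 (0.0715) or normoxia vehicle replicate 2 (0.0861). NES, at 0 and 6 counts in hyperoxia with vehicle, was lower at -3.88 (edgeR adjusted p = 0.00321; -8.21 to -3.12 with 1 library left out). IFFO2 was lower at -0.60 (edgeR adjusted p = 0.0187), a call lost without normoxia vehicle replicate 1 (0.0883) or 2 (0.0704), hyperoxia vehicle replicate 2 (0.208), or with all 14 libraries (0.0502). In the oxygen comparison without vehicle IFFO2 was at 0.23 and not called (edgeR adjusted p = 0.401). With ATRA, IFFO2 rose in normoxia (1.89, SE 0.16, edgeR adjusted p = 1.97e-07) and in hyperoxia (1.43, SE 0.16, adjusted p = 1.36e-05). VIM fell with ATRA in hyperoxia (-0.56, edgeR adjusted p = 0.0321), a call lost without hyperoxia ATRA replicate 1 (0.136), hyperoxia vehicle replicate 1 (0.484) or 2 (0.102), with all 14 libraries (0.166) and with pooled controls (0.218). INA was lower with ATRA in normoxia (-0.74, edgeR adjusted p = 0.0110), a call lost without normoxia vehicle replicate 1 (0.294) or 2 (0.0504) or normoxia ATRA replicate 3 (0.0609), with all 14 libraries (0.132) and with pooled controls (0.0654).

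Of 11 epithelial transcription and splicing factors 7 were tested and 3 were called with vehicle, 1 higher and 2 lower. KLF4 was higher (log2 fold change 2.01, edgeR adjusted p = 0.00130). In the oxygen comparison without vehicle KLF4 was at 0.90 and not called (edgeR adjusted p = 0.224). KLF5 was lower (-0.50, edgeR adjusted p = 0.0403), a call lost with no filter (0.0685), with all 14 libraries (0.113) and without hyperoxia vehicle replicate 1 (0.106) or 2 (0.275) or normoxia vehicle replicate 1 (0.191) or 2 (0.120). ELF3, an epithelial ETS factor, fell in hyperoxia (-1.07, SE 0.18, edgeR adjusted p = 0.000224). ELF3 rose with ATRA in normoxia (1.00, SE 0.16, edgeR adjusted p = 0.00166), a call lost without normoxia vehicle replicate 1 (0.112). In hyperoxia it rose as well (1.67, SE 0.17, edgeR adjusted p = 5.56e-06; 1.53 without hyperoxia ATRA replicate 1, adjusted p = 5.18e-06). Of 13 squamous differentiation genes 12 had a row and 2 were tested, the more abundant FLG standing at a log2 fold change of 0.37 with vehicle (edgeR adjusted p = 0.677). CDH1 fell in hyperoxia with vehicle (log2 fold change -2.17, SE 0.30, edgeR adjusted p = 1.64e-05) and with ATRA (-1.54, adjusted p = 2.93e-05). CDH1 rose with ATRA in hyperoxia (1.28, SE 0.28, edgeR adjusted p = 0.0153), as KRT8, KRT18, KRT19, KRT80 and KRT7 did. That call was lost without hyperoxia ATRA replicate 1 (0.87, edgeR adjusted p = 0.0887), hyperoxia vehicle replicate 1 (1.12, 0.292) or 2 (1.47, 0.105), with all 14 libraries (1.28, 0.143), with only the groups compared (1.28, 0.101) and with pooled controls (0.19, 0.879). Without vehicle, where KRT8 and KRT18 were called, CDH1 was not (-1.02, edgeR adjusted p = 0.0556), but it was without hyperoxia no-vehicle replicate 1 (-1.70, adjusted p = 0.00178), without hyperoxia ATRA replicate 1 (-1.02, 0.0315) or 3 (-1.04, 0.0490), with no filter (-1.06, 0.00468) and with DESeq2 (-1.03, 0.0345). ABCA3 was higher in hyperoxia with vehicle (0.91, SE 0.19, edgeR adjusted p = 0.00192), a call lost without normoxia vehicle replicate 1 (0.0798). The role of these genes in the keratin differences was not tested.

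**Figure D5:**
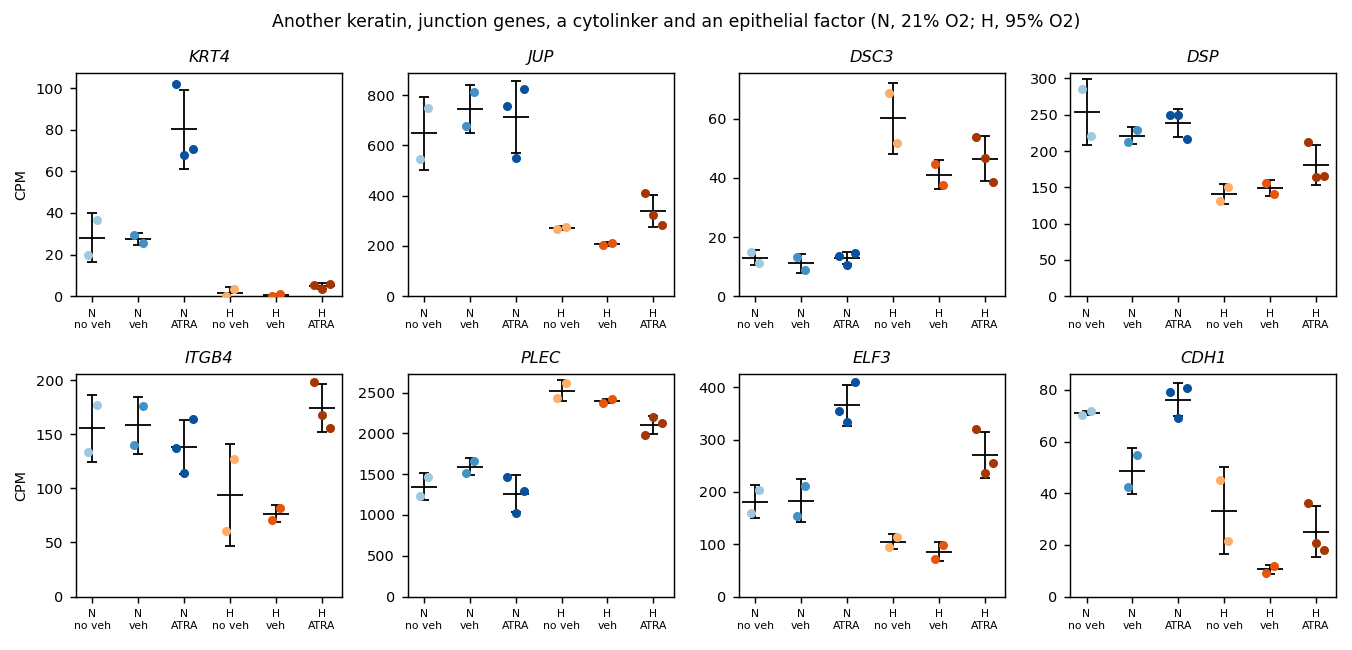
Levels in CPM of 8 genes from the lists and the other keratins, chosen after their values were seen, by group (points, libraries; bars, mean and SD, n = 2 or 3; N, 21% oxygen; H, 95%; veh, vehicle). JUP and CDH1 are lower with vehicle in hyperoxia, and KRT4 is highest in normoxia with ATRA.

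The genes with the pattern most like each keratin were taken by the Pearson r of log2(CPM + 1) over 14 libraries among 15323 tested genes outside the family. For KRT8 they were CASTOR2 (r = 0.988), TNFRSF1A (0.977) and CRIP1 (0.974), and for KRT18 CASTOR2 (0.987), TNFRSF1A (0.984) and CTNND1 (0.981). KRT19 was most like UFD1 (0.967), CNPY3 (0.953) and SETD3 (0.950). KRT80 was most like CYP26B1 (0.955), which encodes an enzyme that degrades retinoic acid, then BTBD11 (0.949) and CDS2 (0.931). The closest genes to KRT7 were FUCA1 (0.927), IRS1 (0.917) and C1R (0.895), and those to KRT81 were RBM14 (0.874), SCRN2 (0.869) and C1QTNF3 (0.853). C1QTNF3 lay near the floor, at a mean of 0.934 CPM. For KRT10 they were PGAM2 (0.905), LOC100294145 (0.902) and LBX2 (0.882), and for KRT15 MFSD2A (0.919), RILPL2 (0.916) and VCPKMT (0.900), at low levels. Without hyperoxia no-vehicle replicate 1, where KRT15 was highest, the r of KRT15 were 0.844, 0.839 and 0.805 (n = 13), and those of the other keratins stayed between 0.847 and 0.986 with the same genes. The libraries share the oxygen and ATRA groups, so these r describe the pattern across groups as well as within them.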

How the data were processed

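RNA-seq read counts per gene symbol for 15 libraries were used as the authors deposited them, without normalization. By the submitters' processing notes, reads were trimmed with Trimmomatic 0.38, aligned to hg38 with HISAT2 and counted with HTSeq, versions not given; the strand setting is not stated. The 5 summary rows were left out, and 75.2% to 78.4% of the reads in the tables lay in them. The library whose labels conflict entered no comparison, which left 14 libraries. Replicate numbers follow the order of the libraries and only name them. The members and gene lists were chosen with earlier results of these data known.

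The fits used R 4.3.3 and edgeR 4.0.16: TMM normalization, filterByExpr (minimum count 10, minimum total count 15), quasi-likelihood F tests, and p-values adjusted by Benjamini-Hochberg across every gene in the fit. A gene was called at an adjusted p under 0.05. A fit of 10 libraries in 4 groups gave the vehicle and ATRA comparisons and the interaction, and a fit of 14 libraries in 6 groups gave the comparison without vehicle. SE is the log2 fold change divided by the square root of F. The floor was 3 counts. Lengths came from GENCODE 44 and promoters from RefSeq. The procedure was tested on simulated data.

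The genes named were drawn from the 9 keratins; other keratins with 10 or more counts in a library and genes overlapping a member; from each list the called genes, at most 6 by smallest p, and the most abundant; and the 3 genes most like each keratin. The lists were other type I and type II keratins, desmosome, hemidesmosome and cytolinkers, keratin-binding proteins, other intermediate filaments, epithelial transcription and splicing factors, squamous differentiation, and markers of epithelial, alveolar type II, airway basal, fibroblast, endothelial and leukocyte cells. Keratins and markers named at 0 or low counts outside this rule were chosen after their values were seen.

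Alternatives were DESeq2 1.42.0, RLE size factors, no filter, only the groups compared, all 14 libraries, treatment as a covariate, pooled controls, raw library totals, and leaving out each library.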

Additional observations from a re-analysis of the deposited data

Results flagged for a closer look

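The ATRA effect on KRT19 differed between hyperoxia and normoxia by 1.37 on the log2 scale in the interaction test of edgeR (adjusted p = 0.0497). The call was lost without any 1 of 8 of the 10 libraries and with all 14 libraries in the fit (adjusted p = 0.517).

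The library whose title names hyperoxia and whose treatment label names adipogenic differentiation was compared with the 4 normoxia control libraries. KRT7 was at 1899 CPM in it, above the highest control at 1834 CPM. KRT10 was at 50.5 CPM against a highest control of 47.4 CPM, and KRT15 at 4.37 CPM against 3.44 CPM. KRT8 at 1361 CPM, KRT18 at 597 CPM, KRT19 at 35.6 CPM and KRT81 at 1679 CPM were below the lowest control, at 3541, 2145, 91.8 and 1707 CPM, and KRT80 at 107 CPM lay within the controls. In the 4 hyperoxia libraries without ATRA, KRT8 was at 1125 to 1414.5 CPM, KRT18 at 504 to 611 CPM, KRT7 at 1619.6 to 2027 CPM and KRT15 at 1.05 to 13.97 CPM, ranges that hold the values of this library. KRT10, KRT19 and KRT81 were above the highest of those 4 libraries, at 49.97, 33.9 and 1585 CPM. Its 2.28 KRT8 counts per KRT18 count lay within the 2.08 to 2.37 of the 7 hyperoxia libraries. These are values of 1 library with no replicate, and the differences were not tested.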

How the results depend on the processing

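No paired analysis was possible because the labels give no shared replicate numbers. Of 245 log2 fold changes of the keratins under alternatives other than leaving out a library, 236 stayed on their side of the threshold, 6 lost the call and 3 gained it. Of 507 with 1 library left out, 490 stayed, 15 lost the call and 2 gained it. Alternatives for the other named genes were chosen after seeing the data: of 1093 values 1003 stayed, 59 lost the call and 31 gained it, and of 2288 with 1 library left out 2154 stayed, 109 lost it and 25 gained it. No called value changed direction, while some values that were not called did. The r without hyperoxia no-vehicle replicate 1 were also added after seeing the data. Where leaving out a library left a group with 1 library, that library was assumed to vary like the other groups.

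The number of keratins called for oxygen with vehicle was 4, 3 with treatment as a covariate, and 3 to 4 with 1 library left out; for oxygen with ATRA it was 3 throughout. For ATRA in normoxia it was 1, and was 2 with no filter, 0 with all 14 libraries, and 0 to 2 with 1 library left out. For the difference of the ATRA effects it was 1, and was 2 with no filter, 0 with all 14 libraries, and 0 to 2 with 1 library left out; DESeq2 gave 1, which was KRT7 and not KRT19, whose adjusted p it left out. For ATRA in hyperoxia it was 5, 4 with all 14 libraries, and 3 to 5 with 1 library left out. For oxygen without vehicle it was 3, and 1 with only the groups compared. The cause was not tested.

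Calls over all genes moved more. Oxygen with vehicle gave 2616 calls, 1420 with all 14 libraries, 4665 with only the groups compared, 4635 with the covariate, and 1386 to 3175 with 1 library left out. Oxygen with ATRA gave 3391, and 1975 with all 14. ATRA in normoxia gave 187, 70 with all 14, 300 with no filter, and 56 to 267 with 1 left out. ATRA in hyperoxia gave 331, 116 with all 14, 182 with pooled controls, 522 with no filter, and 83 to 449 with 1 left out. The difference of the ATRA effects gave 21, 94 with DESeq2, 4 with all 14, 91 with no filter, and 4 to 28 with 1 left out. Oxygen without vehicle gave 2324, 58 with only the groups compared, and 969 to 7364 with 1 left out. Summed keratin CPM moved by less than the spread between replicates on raw library totals in all 6 groups. The separation of every hyperoxia library from every normoxia library in this sum was lost on those totals (8701 CPM in hyperoxia against 8681 CPM in normoxia).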
